A study of Mus musculus with 12 samples.

Results

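The transcription factors that pattern the mesenchyme of the gut were measured in cultured stromal cells of the mouse small intestine, embryonic against adult, with and without lipopolysaccharide (LPS), the outer-wall component of Gram-negative bacteria. The 9 genes, chosen by symbol from among the 23329 genes listed in the count tables, were Nkx2-3, Nkx3-2, Barx1, Isl1, Foxf2, Foxl1, Tcf21, Gata4 and Gata6. Of these, 5 passed the filter on low counts and were tested (Nkx2-3, Foxf2, Tcf21, Gata4 and Gata6), and 4 did not (Nkx3-2, Barx1, Isl1 and Foxl1).

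The stroma came from wild-type mice, either E14.5 embryos, with 6 embryos pooled per culture, or 3 adult mice, and each of the 4 groups (embryonic PBS, embryonic LPS, adult PBS and adult LPS) had 3 libraries from independent cultures. Epithelium was stripped from both tissues, and the adult tissue had also lost its villi by scraping. The cells, which the labels call myofibroblasts, were grown in medium with the kinase inhibitor Y27632, used at passage 2 or 3, and exposed for 6 h to LPS of E. coli O111:B4, stated at 10 µg/µl, or to PBS as the vehicle control. Polyadenylated RNA was sequenced with strand information. Libraries of a number within a stage are called a culture here. In bulk RNA of this kind, fewer cells of a type and less RNA per cell cannot be told apart.

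In the developing gut, mesenchyme and epithelium pattern one another along the tube and from lumen to outer wall. Hedgehog signals from the epithelium act on the mesenchyme, where forkhead factors are among their targets, and homeobox factors give stomach, intestine and spleen mesenchyme their regional identity. GATA factors of the Gata4 to Gata6 group are best known in the gut for their roles in epithelium, and are also expressed by mesothelium and other mesodermal cells.

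Tcf21 and Nkx2-3 are shown by the start of their genes, because with the replicate number as a block in the fit both fell with LPS in adult stroma, and Tcf21 in embryonic stroma too. Without that block neither passed the threshold in edgeR's fit of all 12 libraries. DESeq2, an alternative test without the block, called Nkx2-3 in adult stroma (adjusted p = 0.0110). Both sequences are promoters from RefSeq on GRCm38.p6, 250 bases before to 50 bases after the start site, in lower case with motif matches in capitals. Tcf21 lies at chr10:22820094-22820393 on the minus strand and Nkx2-3 at chr19:43612075-43612374 on the plus strand.
Tcf21: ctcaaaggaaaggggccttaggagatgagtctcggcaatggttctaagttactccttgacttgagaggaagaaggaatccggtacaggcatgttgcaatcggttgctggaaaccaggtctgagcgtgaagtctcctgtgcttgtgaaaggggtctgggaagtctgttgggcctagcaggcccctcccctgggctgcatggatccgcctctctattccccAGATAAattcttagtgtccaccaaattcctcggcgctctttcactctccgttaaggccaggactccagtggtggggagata
Nkx2-3: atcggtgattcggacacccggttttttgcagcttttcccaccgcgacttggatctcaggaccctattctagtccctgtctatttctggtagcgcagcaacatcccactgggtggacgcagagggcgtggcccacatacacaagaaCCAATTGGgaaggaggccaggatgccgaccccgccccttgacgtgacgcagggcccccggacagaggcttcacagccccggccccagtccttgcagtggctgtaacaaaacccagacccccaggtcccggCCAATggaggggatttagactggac
Both strands were searched for TATAAA (the common core promoter box), the short promoter element CCAAT, the forkhead factor core TGTTTAC, the core AGATAA bound by factors of the Gata4 and Gata6 kind, the E-box CANNTG bound by basic helix-loop-helix factors, and the core GACCACCCA of the hedgehog effector GLI. In Tcf21 the capitals mark 1 AGATAA match, starting at position -31 from the start site, and 11.2% of the 32851 promoters hold this motif. In Nkx2-3 they mark CCAAT on the plus strand at -105 and 26, its reverse complement at -102 and the E-box CAATTG at -104, which overlaps the first pair. CCAAT was found in 37.4% and the E-box in 72.3% of promoters, so both are common matches. A match describes the letters only. Promoters were at hand for 6 members. AGATAA was in 3 of these, Tcf21, Nkx3-2 (at 5) and Isl1 (at 11). Foxf2 had 1 E-box (at -38), Nkx3-2 had 2 and Isl1 had 1, Isl1 had CCAAT at -80 and -34, and Barx1 had no match to any of the 6 motifs. None of the 6 held TATAAA, the forkhead core or the GLI core, which are in 13.6%, 3.65% and 0.253% of promoters.

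The 12 libraries held between 18850224 and 32672370 counts in genes, so that 3 counts, taken as the floor, were worth between 0.0896 and 0.144 CPM (counts per 1000000 in genes, with library sizes scaled by TMM). Fibroblast markers were abundant as a sum throughout, at 11387 to 27010 CPM over 9 genes. Among them only Pdgfra passed between the stages, with either treatment, and it was lower in embryonic stroma. With PBS it was at 2.38 to 4.30 CPM in embryonic and 28.5 to 78.5 CPM in adult libraries (log2 difference -3.72, adjusted p = 0.00687, edgeR's quasi-likelihood test). The other 8 did not pass. The 9 epithelial markers summed to 41.0 to 155 CPM. Of these Cdx2 was at 0 in every library and Epcam, Vil1 and Cldn7 had at most 15 counts, whereas Krt18 was at 16.3 to 76.0 CPM in embryonic and 47.0 to 80.9 CPM in adult PBS libraries. Krt20 was higher in embryonic stroma, at 23.6 to 59.1 CPM against 8.81 to 13.3 CPM with PBS (adjusted p = 0.0298, edgeR's quasi-likelihood test). Cultures differed in other cells. Endothelial markers summed to 1749 and 1681 CPM in adult culture 2 and 365 and 337 CPM in adult culture 3, but to 19.5 and 13.9 CPM in adult culture 1 and 8.31 to 34.6 CPM in the embryonic cultures, where Cldn5 was at 0. Not all markers followed the sum. Kdr was at 13.7 to 16.8 CPM in all adult PBS libraries. With LPS it was higher in embryonic stroma, at 11.2 to 29.5 CPM against 6.73 to 9.40 CPM (adjusted p = 0.0312, edgeR's quasi-likelihood test). Cdh5, which passed the filter on low counts through the adult groups alone, was higher in adult stroma with LPS (adjusted p = 0.0484 by the same test). Mesothelial markers summed to 751 and 662 CPM in embryonic culture 2 and 1376 and 1427 CPM in adult culture 1. Macrophage markers summed to 2069 and 1756 CPM in embryonic culture 3, 344 and 851 CPM in embryonic culture 2 and 164 and 150 CPM in embryonic culture 1. In the adult libraries they summed to 15.1 to 182 CPM, a range that holds embryonic culture 1.

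Compared per length, as CPM per kilobase of exon, Nkx2-3 was the highest member in all 4 groups. In embryonic PBS libraries it stood at 24.6 ± 6.03 CPM per kb (SD, n = 3), followed by Foxf2 at 5.99 ± 2.71, Gata6 at 2.74 ± 2.08 and Tcf21 at 2.61 ± 1.75 CPM per kb. Among these, every Nkx2-3 value was above the highest Foxf2 value (7.84 CPM per kb), whereas the ranges of Foxf2, Gata6 and Tcf21 overlapped one another. In adult PBS libraries the order was Nkx2-3 at 35.0 ± 0.852, Tcf21 at 11.8 ± 7.59, Gata6 at 9.44 ± 1.34, Foxf2 at 3.12 ± 0.404 and Gata4 at 0.656 ± 0.179 CPM per kb. There Tcf21 and Gata6 overlapped, and Foxf2 and Gata4 were apart from their neighbours in that order. The remaining members lay at or below 0.279 CPM per kb in both PBS groups. With the longest transcript in place of all exons, Gata6 in adult PBS libraries came to 16.2 CPM per kb and stood above Tcf21 at 15.5 CPM per kb.

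**Figure D1:**
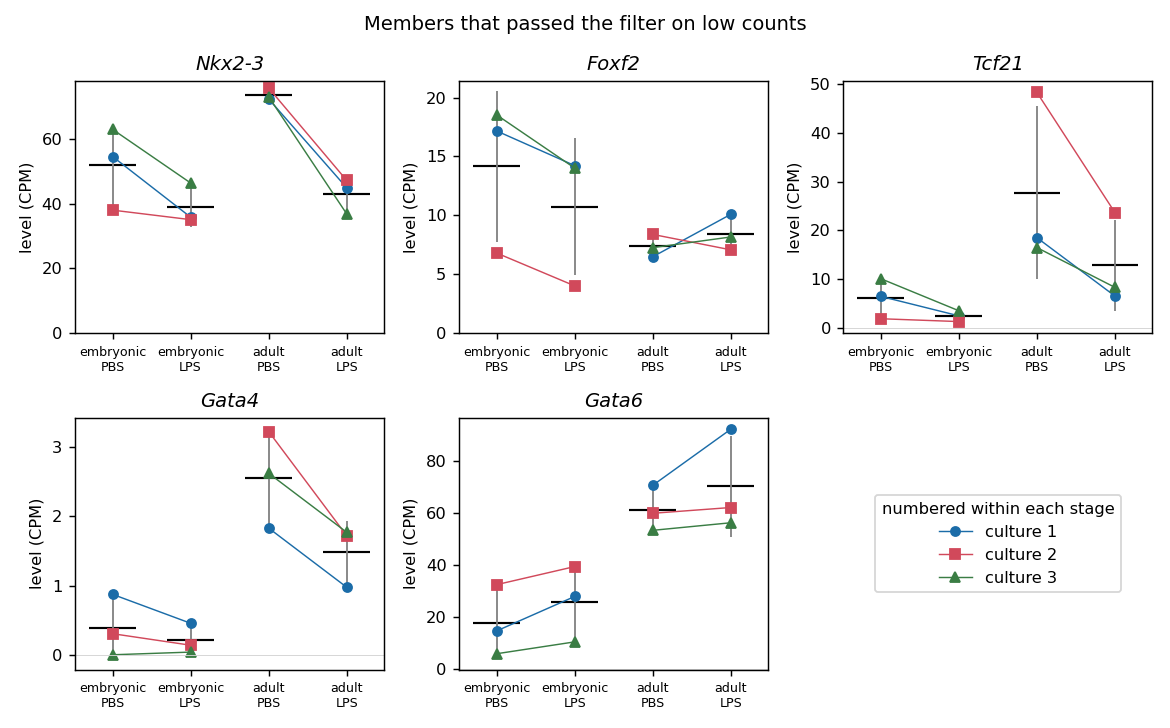
Level (CPM, linear axis) of the 5 tested members in each of the 12 libraries. Points are libraries, lines join the PBS and LPS libraries that carry the same culture number within a stage, black bars are group means and grey bars are 1 SD (n = 3); Tcf21, Gata4 and Gata6 are higher in every adult library than in every embryonic library of the same treatment.

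None of the 5 tested members passed the threshold between the stages with PBS (edgeR's quasi-likelihood test, adjusted p under 0.05), where 4.08% of the 13038 genes tested did. Tcf21, Gata4, Gata6 and Nkx2-3 had lower levels in every embryonic PBS library than in any adult PBS library, while Foxf2 overlapped. With LPS the levels of Tcf21, Gata4 and Gata6 were again apart, and 0 of 5 members passed the threshold against 5.31% of genes (smallest adjusted p = 0.0868, Tcf21). The levels of 24.3% of tested genes did not overlap between the stages with PBS (11.9% with adult higher), and of 25.1% with LPS (11.8% with adult higher). The median log2 difference, embryonic over adult, of the 5 members was -1.79 with PBS and -1.43 with LPS, beside 0.02 for all tested genes in both. Gata4, the lowest of the 5 (-2.69 and -2.78), entered the set only through the adult groups, where it was high. This draws the median down.

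Nkx2-3, a homeobox factor of midgut and hindgut mesenchyme and spleen that is needed for normal villus formation and for the homing of lymphocytes to gut vessels, was the member with the highest level per length. In embryonic PBS libraries its levels were 54.7, 38.1 and 63.1 CPM in cultures 1, 2 and 3. In adult PBS libraries they were 72.5, 75.9 and 73.2 CPM. All 3 adult cultures were above all embryonic ones and lay close together. The log2 difference, embryonic over adult, was -0.51 (SE 0.18, adjusted p = 0.155, edgeR's quasi-likelihood test). Under LPS the stages overlapped, at 35.9, 35.1 and 46.5 CPM in embryonic and 45.0, 47.3 and 36.9 CPM in adult cultures, with a log2 difference of -0.14 (SE 0.18, adjusted p = 0.728 by the same test).

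Nkx2-3 is annotated at chr19:43612325-43615892 on the plus strand with 2 exons, and its other homeobox companions here are Nkx3-2 (chr5:41761483-41764220), Barx1 (chr13:48663036-48666507) and Isl1 (chr13:116298270-116309688). Nkx3-2, a factor of stomach and spleen mesenchyme and of the pyloric region, had 8, 1 and 10 counts in embryonic PBS libraries, 4 in each embryonic LPS library, 4, 4 and 3 in adult PBS libraries and 4, 1 and 1 in adult LPS libraries. Most libraries were near the floor of 3 counts. As CPM, the embryonic LPS libraries (0.138 to 0.155) were above the adult LPS libraries (0.0307 to 0.130), on 1 to 4 counts each. Barx1, which represses Wnt signals in stomach mesenchyme, had 8 counts in both libraries of embryonic culture 1 and 0 to 2 counts in all others. Its detection above the floor was limited to that culture among these 12 libraries. Isl1, a LIM homeobox factor of pyloric and pancreatic mesenchyme and of neurons, had 29, 4 and 4 counts in embryonic PBS and 10, 6 and 48 in adult PBS libraries. With LPS it had 12, 4 and 0 counts in embryonic and 9, 10 and 28 in adult libraries. Embryonic culture 1 and adult culture 3 were the high cultures with either treatment, and the stages overlapped. At this depth, no stage difference in these 3 genes was detectable with all genes kept in the fit (adjusted p from 0.529 to 0.871, edgeR's quasi-likelihood test).

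Foxf2, a forkhead factor downstream of hedgehog signals in gut mesenchyme, was the only tested member with a higher mean in embryonic stroma. Its embryonic PBS levels were 17.2, 6.79 and 18.5 CPM and its adult PBS levels 6.48, 8.38 and 7.25 CPM. Embryonic cultures 1 and 3 were above all adult cultures, and embryonic culture 2 lay within their range. The log2 difference was 0.94 (SE 0.47, adjusted p = 0.307, edgeR's quasi-likelihood test). Under LPS the levels were 14.2, 4.0 and 14.0 CPM in embryonic and 10.1, 7.07 and 8.16 CPM in adult cultures, with the same embryonic culture low (log2 difference 0.35, SE 0.47, adjusted p = 0.729 by the same test). Among embryonic cultures the summed fibroblast markers were also lowest in culture 2 (12471 CPM with PBS against 21415 and 23757 CPM in the others). Among adult cultures they were lowest in culture 2 too (12106 CPM with PBS). There Foxf2 was the highest of its stage with PBS and the lowest with LPS. The part of fibroblasts in the result was not tested.

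Foxf2 lies at chr13:31625816-31631406. Foxl1, a forkhead factor that marks subepithelial telocytes, a niche cell of the crypt, lies at chr8:121127685-121130644 beside Foxf1 and Foxc2. Foxl1 had 8, 8 and 3 counts in embryonic PBS libraries and 10, 16 and 33 in adult PBS libraries. With LPS it had 9, 6 and 1 counts in embryonic and 13, 40 and 19 in adult libraries. As CPM, all adult libraries were above all embryonic ones of the same treatment (0.0896 to 0.244 against 0.366 to 1.12 with PBS, and 0.0388 to 0.315 against 0.423 to 1.23 with LPS). With all genes kept in the fit, the log2 difference was -1.96 with PBS (SE 0.71, adjusted p = 0.187) and -2.12 with LPS (SE 0.72, adjusted p = 0.141, both by edgeR's quasi-likelihood test). The GENCODE model Gm20388 overlaps Foxl1 on the same strand and is not among the listed genes, so reads of either cannot be told apart.

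**Figure D2:**
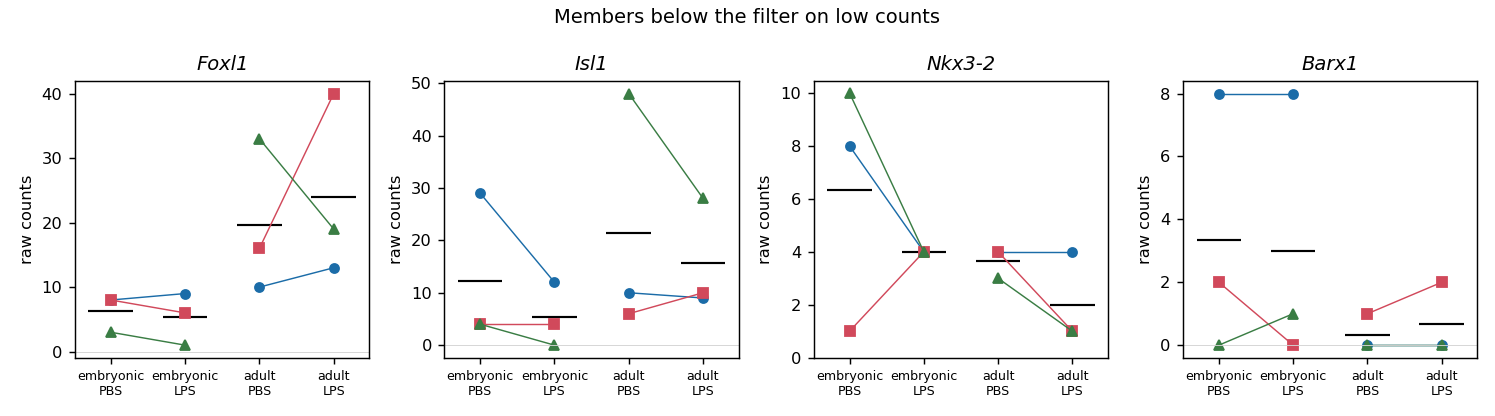
Raw counts of the 4 members below the filter in each of the 12 libraries (not scaled to library size); blue circles, red squares and green triangles are cultures 1, 2 and 3 of each stage, lines join PBS and LPS libraries of a number, and black bars are group means (n = 3). Foxl1 counts are higher in the adult libraries, Isl1 is high in embryonic culture 1 and adult culture 3, and Nkx3-2 and Barx1 stay at or below 10 counts.

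Tcf21, a basic helix-loop-helix factor of visceral mesenchyme and fibroblast progenitors that is known for its role in spleen, lung, kidney and heart, had higher levels in adult stroma. Embryonic PBS levels were 6.44, 1.86 and 10.1 CPM and adult PBS levels 18.5, 48.3 and 16.4 CPM. Adult culture 2 was far above the other cultures, and the lowest adult culture was above the highest embryonic one. The log2 difference was -2.18 (SE 0.72, adjusted p = 0.117, edgeR's quasi-likelihood test), a 4.52-fold higher adult level. With LPS, embryonic levels were 2.45, 1.28 and 3.49 CPM and adult levels 6.51, 23.6 and 8.29 CPM, again apart, with a log2 difference of -2.41 (SE 0.74, adjusted p = 0.0868 by the same test). Adult culture 2 was also the culture with the most endothelial marker RNA (1749 CPM with PBS). Adult cultures 1 and 3, with Tcf21 at 18.5 and 16.4 CPM, had 19.5 and 365 CPM of these markers. The embryonic PBS libraries had 8.31 to 31.0 CPM. The part of endothelial cells in the result was not tested.

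Tcf21 lies at chr10:22817263-22820143 on the minus strand, and the antisense gene Gm10824 overlaps it. The counts used here are of the strand of the gene, and the opposite strand held 0 to 12 counts over Tcf21 in any library. DESeq2 called Tcf21 higher in adult stroma with either treatment (adjusted p = 0.0178 with PBS and 0.0073 with LPS). It called 1552 and 1704 genes in all in these comparisons.

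Gata4, a zinc finger factor best known in heart, gonad and proximal intestinal epithelium, was low. It had 29, 10 and 0 counts in embryonic PBS libraries and 50, 67 and 77 in adult PBS libraries, which came to 0.873, 0.305 and 0 CPM and to 1.83, 3.22 and 2.62 CPM. All adult cultures were above all embryonic ones. The log2 difference was -2.69 (SE 0.97, adjusted p = 0.152, edgeR's quasi-likelihood test). Under LPS it was -2.78 (SE 1.03, adjusted p = 0.145 by the same test), with 13, 4 and 1 counts in embryonic and 30, 56 and 41 in adult libraries. Gata4 passed the filter through the adult PBS and adult LPS libraries, where it was highest. It lies at chr14:63198914-63271712.

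Gata6, the related factor of visceral mesoderm, endoderm and mesothelium, was higher than Gata4 per length in all 4 groups. Its embryonic PBS levels were 14.8, 32.6 and 6.03 CPM and its adult PBS levels 70.8, 60.0 and 53.5 CPM. Embryonic culture 2 was the high one of its stage and culture 3 the low one, and the stages did not overlap. The log2 difference was -1.79 (SE 0.58, adjusted p = 0.111, edgeR's quasi-likelihood test), a 3.45-fold higher adult level. With LPS, levels were 28.1, 39.5 and 10.6 CPM in embryonic and 92.4, 62.2 and 56.4 CPM in adult cultures (log2 difference -1.43, SE 0.57, adjusted p = 0.175 by the same test).

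The cultures with the highest Gata6 in each stage, embryonic culture 2 and adult culture 1, also had the most mesothelial marker RNA, with all 6 markers above the floor in every library, and the part of mesothelial cells in the result was not tested. With PBS, the summed mesothelial level was 751 CPM in embryonic culture 2 and 498 and 687 CPM in adult cultures 2 and 3. Without the PBS library of embryonic culture 2, the highest of its group, the Gata6 stage difference with PBS became -2.57 on the log2 scale. It then passed the threshold (adjusted p = 0.0397, edgeR's quasi-likelihood test). This was the only Gata6 call among the 12 fits that each lacked 1 library, with adjusted p up to 0.282 by the same test. With all libraries DESeq2 called Gata6 with PBS (adjusted p = 0.0167), where it called 1552 genes in all. It did not call Gata6 with LPS (adjusted p = 0.067).

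**Figure D3:**
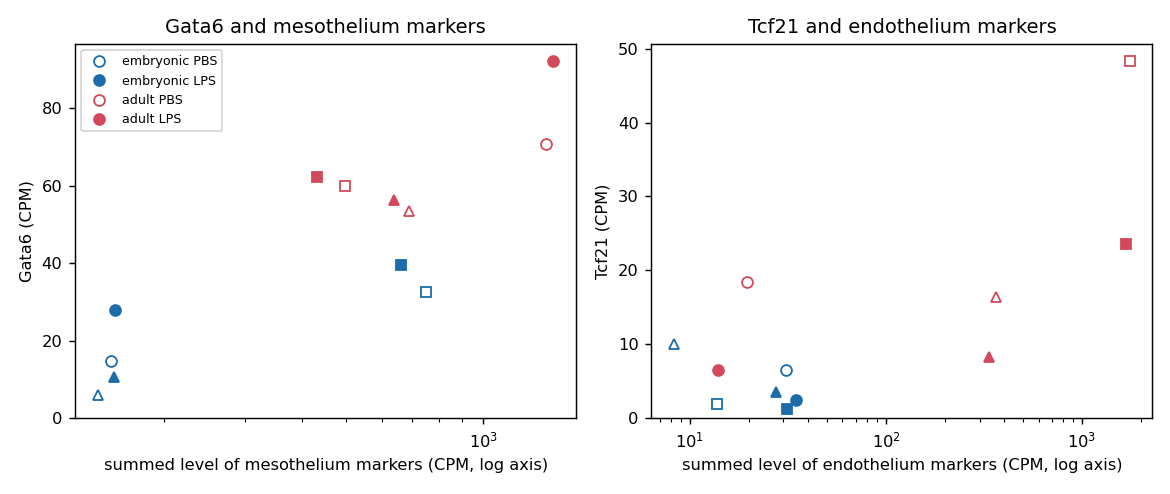
Gata6 against the summed level of 6 mesothelial markers, and Tcf21 against that of 6 endothelial markers, per library (CPM; horizontal axes are logarithmic). Blue is embryonic, red is adult, open symbols are PBS, filled symbols are LPS, and circles, squares and triangles are cultures 1, 2 and 3; within each stage Gata6 is highest in the culture with the most mesothelial RNA, and the highest Tcf21 points are adult culture 2, which has the most endothelial RNA.

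When the PBS and LPS counts of each culture were added, leaving 3 values per stage, none of the 5 members passed the threshold (adjusted p from 0.154 for Tcf21 to 0.473 for Foxf2, edgeR's quasi-likelihood test). Few genes of any kind passed in this fit (counted in the closing section), so the absence of members among them says little. The log2 differences were -2.15 for Tcf21, -2.68 for Gata4, -1.63 for Gata6, -0.35 for Nkx2-3 and 0.66 for Foxf2.

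The second question of the design is how the members answered LPS. Without regard to culture, none of the 5 passed the threshold in either stage (edgeR's quasi-likelihood test), where 2.75% of genes did in embryonic and 0.606% in adult stroma. The libraries with the same number within a stage deviated together, so the fit with the number as a block (replicate block) bears on this comparison. With the replicate block, 2 of 5 members passed in embryonic stroma (12.5% of genes) and 2 of 5 in adult stroma (6.2% of genes). In the embryonic stroma Tcf21 fell and Gata6 rose, beside 3.11% of all tested genes that fell and 9.43% that rose. In the adult stroma Tcf21 and Nkx2-3 fell, beside 1.51% of genes that fell and 4.69% that rose.

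Tcf21 had a lower LPS than PBS level in 3 of 3 embryonic and 3 of 3 adult cultures. The log2 change in CPM was -1.37, -0.51 and -1.50 in embryonic cultures 1, 2 and 3 and -1.50, -1.03 and -0.98 in adult ones. Embryonic culture 2, which started from the lowest level, changed least. With the replicate block the fold change was -1.23 on the log2 scale in embryonic stroma (SE 0.21, adjusted p = 0.00713) and -1.17 in adult stroma (SE 0.18, adjusted p = 0.00747, edgeR's quasi-likelihood test), 2.35-fold and 2.25-fold lower levels with LPS. Without the block these were -1.35 (SE 0.72, adjusted p = 0.610) and -1.11 (SE 0.70, adjusted p = 1). With the block, leaving out each culture in turn kept the embryonic call in 6 of 6 fits and the adult call in 5 of 6, the exception being the fit without adult culture 1 (log2 change -1.01, adjusted p = 0.0815).

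Nkx2-3 was lower with LPS in 3 of 3 cultures of each stage as well. The log2 change was -0.61, -0.12 and -0.44 in embryonic cultures and -0.69, -0.68 and -0.99 in adult cultures. All adult cultures changed by more than any embryonic one. In adult stroma the replicate block gave -0.79 (SE 0.11, adjusted p = 0.00497), a 1.72-fold lower level, and this call held in 6 of 6 fits without a culture. In embryonic stroma it gave -0.39 (SE 0.11, adjusted p = 0.0549), which did not pass, although it did without embryonic culture 2 (log2 change -0.52, adjusted p = 0.0163, edgeR's quasi-likelihood test). The difference between the stages in this response was 0.40 on the log2 scale (SE 0.15, adjusted p = 0.492, with the replicate block in the same test).

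Gata6 was higher with LPS in 3 of 3 cultures of each stage. The log2 change was 0.92, 0.28 and 0.81 in embryonic cultures and 0.38, 0.05 and 0.08 in adult cultures. Embryonic cultures 1 and 3 changed most and adult cultures 2 and 3 barely differed between treatments. The replicate block gave 0.66 in embryonic stroma (SE 0.14, adjusted p = 0.0183, edgeR's quasi-likelihood test), a 1.57-fold higher level, and 0.17 in adult stroma (SE 0.13, adjusted p = 0.579 by the same test). The embryonic call was lost without embryonic culture 1 (adjusted p = 0.0904), embryonic culture 3 (0.0898) or adult culture 3 (0.0581), and held in the other 3 fits. In the embryonic cultures the summed mesothelial markers were at 152, 751 and 143 CPM with PBS and 156, 662 and 155 CPM with LPS.

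Foxf2 and Gata4 did not pass the threshold in either stage. Foxf2 had a log2 change of -0.27, -0.75 and -0.40 in embryonic cultures and 0.63, -0.25 and 0.17 in adult cultures. The embryonic cultures thus shared a direction that the adult cultures did not. With the replicate block its fold change was -0.46 on the log2 scale in embryonic (SE 0.18, adjusted p = 0.137) and 0.19 in adult stroma (SE 0.18, adjusted p = 0.683, edgeR's quasi-likelihood test). Gata4 was lower with LPS in 3 of 3 adult cultures, by -0.87, -0.90 and -0.54 on the log2 scale, and the replicate block gave -0.79 (SE 0.26, adjusted p = 0.151 by the same test). In embryonic stroma its counts of 0 to 29 gave -0.85 (SE 0.44, adjusted p = 0.268).

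**Figure D4:**
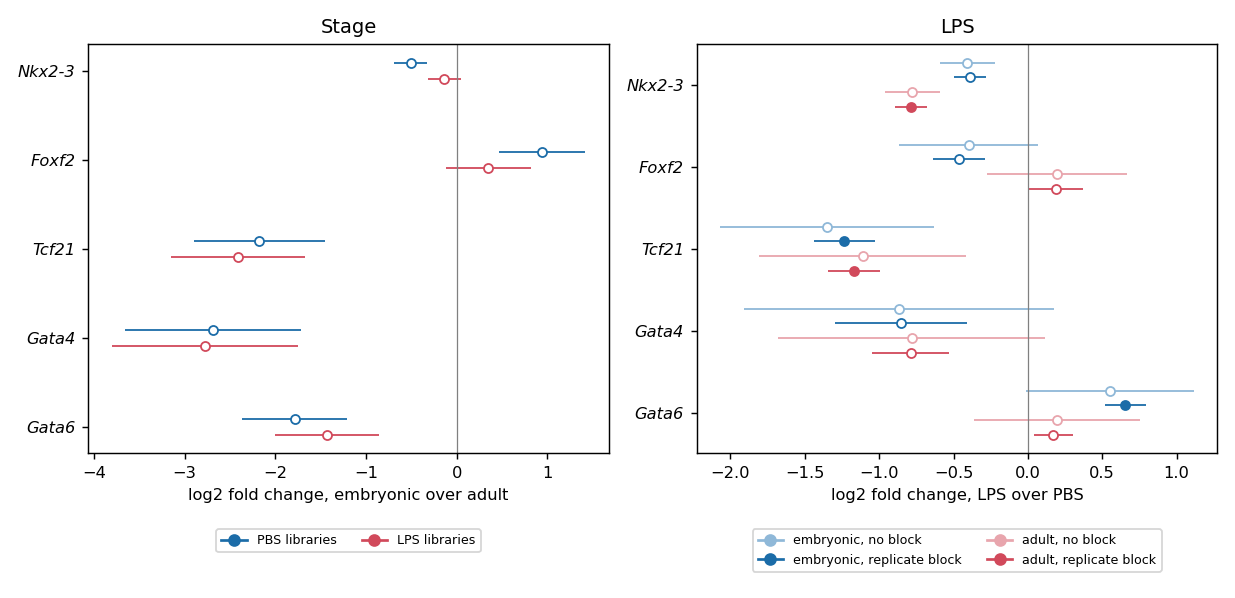
Log2 fold changes of the 5 tested members with 1 SE, embryonic over adult (left) and LPS over PBS without and with the replicate block (right). Filled points passed an adjusted p of 0.05 in edgeR's quasi-likelihood test; no stage difference is filled, and the 4 filled LPS changes are Tcf21 and Gata6 in embryonic and Nkx2-3 and Tcf21 in adult stroma, all with the block.

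The LPS responses of the stages were compared by the interaction. Without the block 0 of 5 members and 0 of 13038 genes passed (0% of genes, edgeR's quasi-likelihood test). In that test 293 genes had an unadjusted p under 0.05, which is a share below 0.05. DESeq2 called 25 genes. With the replicate block 0.844% of genes and 0 of 5 members passed. The smallest adjusted p of a member was 0.492, shared within rounding by Nkx2-3 (0.40 on the log2 scale) and Foxf2 (-0.65), with Gata6 at 0.493 (0.48). For Tcf21 the difference between the stages was -0.06 on the log2 scale (SE 0.26, adjusted p = 0.980).

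Over the 12 libraries, taken here as 6 cultures, some members varied together in log2 CPM. As a description, Pearson's r was 0.81 between Gata4 and Gata6, 0.80 between Nkx2-3 and Tcf21 and -0.70 between Foxf2 and Gata6. The genes most like each member were Zbtb8a and 1700020I14Rik for Nkx2-3 (both r = 0.93), Nt5dc2 and Dact1 for Foxf2 (0.97 and 0.94), Trip4 and Trpc6 for Tcf21 (both 0.95), Clock and 1700001L05Rik for Gata4 (both 0.94), and Gpr64 and Prss12 for Gata6 (0.97 and 0.95). Dact1 is known as a modulator of Wnt signals and Trpc6 as a cation channel.

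Other transcription factors of mesenchyme, 48 genes, were set beside the members. They were listed from general knowledge of the field, but with earlier results of these data known, so they are not an independent background. Of these 32 were tested, and with PBS 5 were higher in adult stroma, beside 2.57% of all genes. With LPS 5 were again higher in adult stroma, beside 2.27% of all genes (3.04% of all genes were higher in embryonic stroma), and the 5 genes were shared. The other 27 did not pass with either treatment. The median log2 difference of the 32 was -0.35 with PBS, against 0.02 for all genes.

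Among these 5, Prrx1 and Twist2 passed the filter on low counts through the adult groups alone, where they were high, so they entered the test only because of those groups. Gata2, Snai1 and Prrx2 passed it in embryonic groups too. Prrx1, a homeobox factor of limb and skeletal mesenchyme, was at 1.32, 0.305 and 0.508 CPM in embryonic and 52.7, 28.7 and 48.4 CPM in adult PBS libraries (log2 difference -5.92, SE 0.67, adjusted p = 0.00208, edgeR's quasi-likelihood test). Gata2, Twist2, Snai1 and Prrx2 were also higher in adult stroma, with log2 differences of -4.16, -4.02, -1.44 and -1.29.

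Gata2, a factor of blood and endothelial cells, was at 29.0, 80.7 and 33.8 CPM in adult PBS libraries and 4.97, 1.68 and 1.37 CPM in embryonic ones. It was highest in adult culture 2, the culture with the most endothelial RNA. Adult cultures 1 and 3, with Gata2 at 29.0 and 33.8 CPM, had 19.5 and 365 CPM of endothelial markers with PBS. The part of endothelial cells in the result was not tested. Gata5, chosen after its values were seen, did not pass the filter, with 0 counts in all embryonic PBS libraries, which allows up to 3 counts in each, and 97, 10 and 9 in adult PBS libraries. Adult culture 1, with the most mesothelial RNA and the most Gata6, held most of its counts. Foxf1, the neighbour of Foxl1 and close relative of Foxf2, was at 28.9, 10.9 and 24.8 CPM in embryonic and 18.2, 17.3 and 17.6 CPM in adult PBS libraries, with embryonic culture 2 low as for Foxf2 (log2 difference 0.28, SE 0.37, adjusted p = 0.760, edgeR's quasi-likelihood test).

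**Figure D5:**
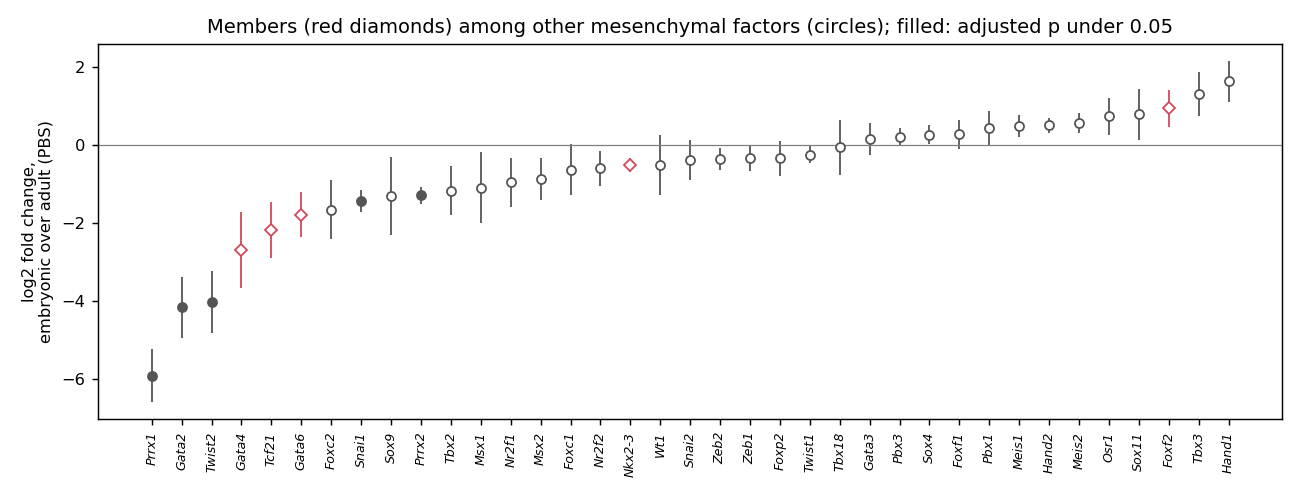
Log2 fold change, embryonic over adult PBS libraries, with 1 SE for the 5 tested members (red diamonds) and 32 other mesenchymal factors (circles), in order of size. Filled symbols passed an adjusted p of 0.05 in edgeR's quasi-likelihood test; these are 5 factors higher in adult stroma, and no member is filled.

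With LPS and the replicate block, 3 of the 32 other factors rose in embryonic stroma (Zeb1, Zeb2 and Hand2) and 4 fell (Osr1, Meis1, Tbx18 and Pbx3), beside 9.43% of all genes that rose and 3.11% that fell. The share that rose was thus near that of all genes. In adult stroma 1 rose (Zeb1) and 4 fell (Tbx2, Meis1, Meis2 and Foxc1), beside 4.69% and 1.51% of all genes. Meis1, a homeobox cofactor, and Zeb1, a repressor of epithelial genes, thus passed in both stages. Meis1 changed by -0.82 in embryonic and -1.07 in adult stroma on the log2 scale (adjusted p = 0.0161 and 0.0099, edgeR's quasi-likelihood test), and Zeb1 by 0.77 and 0.70 (adjusted p = 0.010 and 0.0264 by the same test).

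Of 11 partners and targets of the members, all tested, none passed between the stages with either treatment. With LPS and the replicate block, 2 rose and 2 fell in embryonic stroma (Madcam1 and Tcf4, Lmo4 and Ldb1), and 1 rose and 1 fell in adult stroma (Madcam1 and Lmo4). Of all genes 9.43% rose and 3.11% fell in embryonic stroma, and 4.69% and 1.51% in adult stroma. Madcam1 encodes a vascular addressin of gut and is known as a target of Nkx2-3. It passed the filter on low counts through the adult LPS libraries alone, where it was high, and entered the test only because of them. It had 1, 1 and 0 counts in embryonic PBS libraries and 35, 6 and 34 in embryonic LPS libraries (adjusted p = 0.00797, with the block in edgeR's quasi-likelihood test). In adult PBS libraries it had 0 counts throughout, and with LPS 20, 19 and 26 counts, at least 6.61-fold higher against the mean floor of 3 counts per library (adjusted p = 0.0145 by the same test).

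Lmo4, a LIM-only partner of GATA and Ldb1 complexes, fell from 91.5, 53.2 and 100.9 CPM with PBS to 49.5, 37.2 and 61.7 CPM with LPS in embryonic stroma. In adult stroma it fell from 94.4, 95.6 and 85.0 CPM to 54.5, 77.7 and 57.5 CPM. Every culture was lower with LPS, and the log2 changes with the block were -0.70 (SE 0.11, adjusted p = 0.00478) and -0.55 (SE 0.11, adjusted p = 0.0248, edgeR's quasi-likelihood test). Among the dimer partners of Tcf21, Tcf4 rose in embryonic stroma (0.72 on the log2 scale, adjusted p = 0.00852 by the same test), whereas Tcf3 and Tcf12 did not pass in either stage.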

How the data were processed

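Groups and replicate numbers follow the sample labels. The authors trimmed reads with Trim Galore, aligned them to GRCm38.p6 by STAR, dropped multiple mappers and reads over 1 mismatch, and deposited raw counts per gene, on either strand and on each strand. The counts of the strand that held nearly all gene reads were used (the opposite strand held 1.14% to 1.98%, and rows that name no gene, left out, between 8.36% and 9.43% for reads outside genes).

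Genes with a CPM above 0.5 in all libraries of at least 1 group (13038) were tested in R 4.3.3 with edgeR 4.0.16 (TMM, quasi-likelihood test, 1 model of 12 libraries) and Benjamini-Hochberg adjustment over all of them. DESeq2 1.42.0 was an alternative. Figures were drawn with matplotlib 3.10.9. The SE is the absolute log2 fold change divided by the square root of F. Log2 changes of single cultures used a prior count of 2. The fits were tested on simulated data.

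LPS and PBS libraries of 1 number within a stage were taken as paired: the correlation of their deviations from group means was between 0.60 and 0.84, against -0.75 to 0.03 for different numbers. Deviations within a group cancel out, so high values for the same number push those for different numbers down. The second range is thus no separate evidence of pairing. Numbers did not pair the stages (-0.30 to 0.01). The sources do not state that paired libraries came from 1 culture. Without the block, p-values measure the spread between the libraries of a group. That fit takes all 12 libraries as independent when it estimates the spread. With the block, p-values measure the spread of the LPS change among these cultures.

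Exons, strands and overlapping genes came from GENCODE vM21, and gene coordinates and promoters from RefSeq, all on GRCm38.p6. All members matched by symbol. The text names the 9 members, the other mesenchymal factors past the threshold between PBS groups (2 listed factors are not reported here, and counts leave them out), the partners and targets, and the 2 genes most correlated with each tested member. Other factors past the threshold with LPS, and Foxf1, were named after their values were seen. The members and lists were chosen with earlier results of these data known.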

Additional observations from a re-analysis of the deposited data

How the results depend on the processing

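With 3 cultures a stage, the spread between cultures limits each stage comparison, and for Nkx3-2 and Barx1, at 0 to 10 counts, so does depth. No stage difference of the 5 tested members changed direction under the alternatives run. RLE size factors, counts on either strand and no filter on low counts called 0 members, as the main fit did, and all genes called stayed within 1.5 times. With DESeq2, all genes called were 1552 and 1704 between the stages (PBS, LPS), 684 and 294 for LPS (embryonic, adult) and 25 for the interaction, and 2, 1 and 1 members passed (PBS, LPS, adult LPS). A size limit of 2 on the log2 scale left 291 and 385 genes between the stages. An adjusted p under 0.01 left 102 and 96 between the stages and 119 and 16 for LPS.

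With the replicate block within each stage, 1635, 808 and 110 genes passed (embryonic LPS, adult LPS, interaction) and 2 members in each LPS response. A replicate block across the stages, whose numbers do not pair, gave 891 and 1059 genes and 1 member, Gata6 with PBS (edgeR's quasi-likelihood test, log2 difference -2.05, adjusted p = 0.0338). With the 6 libraries of a comparison alone, 173, 70, 4 and 227 genes passed (stage with PBS, stage with LPS, embryonic LPS, adult LPS), and 1 member, Nkx2-3 in the adult response (edgeR's quasi-likelihood test, adjusted p = 0.0238). Adding the counts of a culture left 149 genes between the stages. With the longest transcript, 1 level per length in the PBS groups moved by more than its SD, that of Gata6 in adult libraries, from 9.44 to 16.2 CPM per kb.

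Leaving out 1 library at a time gave 152 to 638 genes between the stages with PBS, 132 to 814 with LPS, 114 to 471 for embryonic and 4 to 145 for adult LPS. Members called were 0 to 1 between the stages with PBS and 0 to 1 for adult LPS (Nkx2-3 without embryonic PBS replicate 2, adjusted p = 0.0489, edgeR's quasi-likelihood test). Small changes turned sign without the block: the Gata4 response in embryonic stroma ranged from -2.07 to 0.48, the Gata6 response in adult stroma from -0.052 to 0.33, and the interaction from -0.90 to 0.56 for Tcf21, -1.29 to 1.26 for Gata4 and -0.080 to 1.13 for Gata6. With the block, and without each culture in turn (an alternative chosen after seeing the data), 1 to 3 members passed in embryonic and 1 to 2 in adult stroma. There the Foxf2 response in adult stroma ranged from -0.039 to 0.40, and the interaction from -0.29 to 0.086 for Tcf21 and -0.21 to 0.086 for Gata4. With the block and no filter, also chosen later, 3 members passed in embryonic stroma, Nkx2-3 among them (adjusted p = 0.0306, edgeR's quasi-likelihood test). Shares of all genes in these fits are not given here. With the block, the filter and all cultures, 12.5% of genes passed in embryonic and 6.2% in adult stroma. The causes were not tested.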
